A study of Mus musculus with 6 samples.

Results

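*Cyp26a1*, *Cyp26b1* and *Cyp26c1*, the genes of the CYP26 enzymes that degrade retinoic acid (RA), were followed library by library in RNA-seq of E10 mouse eye tissue from wild-type (WT) and *Rdh10* KO embryos. They were taken by gene name from the 26437 genes of the deposited table, and all 3 were detected in every library and passed the filter on low values, which 22921 genes passed. In *Rdh10* KO tissue the level of *Cyp26b1* was lower, with a mean count at 50.2% of the WT mean. The test, made on log2 values, gave 0.442 times WT (log2 fold change −1.18 ± 0.34 (SE, n = 3), adjusted p = 0.0236 by limma). However, its groups overlapped and the call depended on single libraries. *Cyp26a1*, at 78.4% of the WT mean, and *Cyp26c1*, at 169%, did not pass the test. Within each library, the ratio of *Cyp26c1* to *Cyp26b1* was higher in all 3 *Rdh10* KO libraries than in all 3 WT libraries. This was 1 of 3 pairs compared, and it did not pass its test (exact permutation p = 0.1, adjusted 0.3). How often the ratio of any 2 genes separates the groups was not computed.

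RA is made from retinol by way of retinaldehyde and acts in the nucleus on RA receptors (RARs) bound to RA response elements (RAREs). CYP26 enzymes are cytochrome P450 proteins of the endoplasmic reticulum that oxidize RA to polar products, and through them cells without RA synthesis keep RA low at the borders of RA-producing tissue. In the embryonic eye, *Cyp26a1* and *Cyp26c1* are known from a band of retina between the dorsal and ventral zones of RA synthesis, and all 3 genes are also known from other head tissues such as hindbrain or craniofacial mesenchyme. *Cyp26a1* is a classical RA-induced gene, so that the enzyme that removes RA is itself made in response to RA.

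The WT group was made of wild-type embryos, and the *Rdh10* KO group of embryos homozygous for a null allele of *Rdh10* in the whole embryo, bred from heterozygous parents. Both groups were collected at E10 without any treatment, from mice of a mixed outbred Black Swiss and C57BL/6 background. Each group had 3 libraries, and every library came from 3 pooled embryos (9 embryos a group), so differences between embryos within a pool cannot be seen. The tissue was the front of the head, which holds both optic vesicles together with face and some forebrain, and the labels call it craniofacial as well as eye. In such bulk tissue, fewer cells that express a gene and less RNA per cell cannot be told apart.

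The libraries held 16392777 to 27101025 reads on genes. Values are given as normalized counts, meaning that each library's reads were divided by its own scaling factor (0.85 to 1.40). Replicates differed by more than sampling noise in both groups, where chi-square divided by its degrees of freedom (1 for noise alone) was 2.83 to 6.0 between WT libraries and 13.5 to 19 between *Rdh10* KO libraries. The targeted gene *Rdh10*, which encodes the retinol dehydrogenase that makes retinaldehyde, had normalized counts of 399, 342 and 381 in WT replicates 1 to 3 and of 183, 142 and 181 in *Rdh10* KO replicates 1 to 3. All *Rdh10* KO libraries were thus below all WT libraries, and transcript from the locus was still counted (log2 fold change −1.16, adjusted p = 7.35e-05 by limma). The defining markers of the labelled tissue were present, and none of the 12 optic vesicle, 8 forebrain, 10 cranial mesenchyme and 7 surface ectoderm markers was at 0 throughout a group. *Rdh10* KO replicate 1 was below both other *Rdh10* KO libraries for 11 of the 12 optic vesicle, 6 of the 8 forebrain and 7 of the 7 primitive blood markers. The same held for only 4 of the 10 cranial mesenchyme, 1 of the 7 endothelial and 0 of the 7 surface ectoderm markers. Over all genes replicate 1 was not clearly apart. Chi-square divided by its degrees of freedom was 13.5 between replicates 1 and 2, 19 between 1 and 3, and 13.9 between 2 and 3.

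On GRCm38 (mm10), *Cyp26c1* (ENSMUSG00000062432.4) and *Cyp26a1* (ENSMUSG00000024987.5) are neighbours on the plus strand of chromosome 19. *Cyp26c1* lies at chr19:37685581-37693398, in 1 annotated transcript of 6 exons and 1747 bp. *Cyp26a1* follows at chr19:37697798-37701536, with a main transcript (ENSMUST00000025946.6) of 7 exons, and 4399 bp separate the pair. *Cyp26b1* (ENSMUSG00000063415.12) lies by itself on the minus strand at chr6:84571414-84593908, with 5 coding transcripts, of which ENSMUST00000168003.8 has 7 exons and 4170 bp. No other annotated gene overlaps any of the 3. The longest identical stretch between transcripts was 20 bases for *Cyp26a1* and *Cyp26b1*, 15 for *Cyp26a1* and *Cyp26c1*, and 20 for *Cyp26b1* and *Cyp26c1*, so that the 3 genes share little sequence through which reads could be exchanged.

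The sequence just before each gene's start is shown because RA receptors bind pairs of a hexamer, and because *Cyp26a1* is known for such a site. Capitals mark the hexamers searched, which were AGGTCA or AGTTCA or GGGTCA or GGTTCA on either strand. The sequences are RefSeq promoter windows on GRCm38.p6, written 5′ to 3′ on the gene's strand, and only bases before both the RefSeq and the GENCODE start are printed. They cover chr19:37697558-37697797 (plus strand) for *Cyp26a1*, chr6:84593909-84594060 (minus strand) for *Cyp26b1* and chr19:37685430-37685580 (plus strand) for *Cyp26c1*.
Cyp26a1: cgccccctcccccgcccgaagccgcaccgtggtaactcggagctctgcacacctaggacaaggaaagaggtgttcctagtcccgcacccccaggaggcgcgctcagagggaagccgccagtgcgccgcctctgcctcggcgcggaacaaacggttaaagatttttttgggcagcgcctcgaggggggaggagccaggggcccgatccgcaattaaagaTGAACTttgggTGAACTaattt
Cyp26b1: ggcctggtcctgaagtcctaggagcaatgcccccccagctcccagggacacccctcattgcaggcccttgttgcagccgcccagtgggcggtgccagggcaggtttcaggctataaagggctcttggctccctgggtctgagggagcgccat
Cyp26c1: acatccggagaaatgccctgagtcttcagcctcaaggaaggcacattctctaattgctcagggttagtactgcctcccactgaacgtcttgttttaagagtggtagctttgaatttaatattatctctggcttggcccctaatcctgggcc

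The *Cyp26a1* window held 2 hexamers, and they form a direct repeat with a spacer of 5 bases (DR5), the arrangement of the classical RARE. In their full windows of 300 bases, *Cyp26b1* and *Cyp26c1* held 0 hexamers. Over 32851 windows of this length (27025 genes), 43.7% held a hexamer, 0.222% a DR1, 0.268% a DR2 and 0.0974% a DR5 (32 windows). Sequence farther from the start, where other RAREs may lie, was not searched. The window of *Cyp26a1* had 62.3% G and C with 26 CpG dinucleotides, that of *Cyp26b1* 62.3% with 9 and that of *Cyp26c1* 53.3% with 5, against medians of 52.7% and 7 over all windows.

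The DR5 of *Cyp26a1* is set beside that of *Rarb*, an RA receptor gene that is itself a classical RA-induced gene. Both are written on the minus strand, 5′ to 3′, with the hexamers in capitals. The *Cyp26a1* repeat lies at chr19:37697776-37697792 and ends 6 bases before the first annotated start of the gene, and the *Rarb* repeat lies at chr14:16575513-16575529, with its end 37 bases before the RefSeq start.
Cyp26a1 DR5: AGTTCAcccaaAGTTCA
Rarb DR5: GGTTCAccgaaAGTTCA

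*Rarb* had normalized counts of 640, 601 and 618 in WT and of 279, 346 and 300 in *Rdh10* KO libraries. Its groups did not overlap and it was called lower (log2 fold change −1.01, adjusted p = 3.29e-05 by limma). *Cyp26a1*, with the same class of repeat, did not pass the test. Of the 31 genes with a DR5 in a window, 10 were tested, 2 were called lower and 1 was called higher. Those called lower were *Rarb* itself and *Gm14133*, whose normalized counts were low (3.07, 7.79 and 9.40 in WT). The gene called higher was *Ppbp* (log2 fold change 0.86). A gene was called at an adjusted p under 0.05 and a log2 fold change beyond 0.85 in either direction, and 0.886% of all tested genes were called lower and 2.41% higher. The 7 of these DR5 genes with a mean above 10 had a median log2 fold change of −0.33, against 0.00 over all 15272 genes above that level. These 7 include *Cyp26a1* and *Rarb*, and the median is the value of the globin gene *Hbb-y*. The groups of *Hbb-y* overlapped (adjusted p = 0.474 by limma), and a shift of DR5 genes as a set was not tested. The match is of letters only, and RAR binding at these sites was not measured.

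*Cyp26a1*, the RA-induced member of the family, had normalized counts of 174, 190 and 150 in WT replicates 1 to 3 and of 146, 102 and 154 in *Rdh10* KO replicates 1 to 3. Replicates 1 and 2 of *Rdh10* KO lay below every WT library, replicate 3 lay within the WT range, and the groups overlapped. The means were 171 ± 20.5 and 134 ± 27.8 (SD, n = 3), and the log2 fold change was −0.37 ± 0.18 (SE), with a 95% interval from −0.75 to 0.02. The adjusted p was 0.183 (limma) and the exact two-sided permutation test gave p = 0.2, where 0.1 is the smallest p that 3 libraries against 3 allow. The interval therefore runs from a level of 0.594 times that of WT to 1.01 times.

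*Cyp26b1*, which also clears RA in the head and limbs of the embryo, had normalized counts of 201, 190 and 139 in WT and of 155, 44.8 and 65.9 in *Rdh10* KO libraries. *Rdh10* KO replicates 2 and 3 were far below all WT libraries, whereas replicate 1 lay between the WT values. The counting intervals of the *Rdh10* KO libraries were 135 to 177, 32.3 to 60.6 and 49.8 to 85.6 (exact Poisson, 95%, counting error only), so replicate 1 differed from the other two by more than counting error. The means were 177 ± 32.9 and 88.7 ± 58.7 (SD, n = 3), and the log2 fold change was −1.18 ± 0.34 (SE; 95% interval −1.90 to −0.46; adjusted p = 0.0236 by limma). This is a level of 0.442 times that of WT with an interval from 0.269 to 0.729. The exact permutation test gave p = 0.2.

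The call of *Cyp26b1* changed with the libraries used. Without *Rdh10* KO replicate 1 the log2 fold change was −1.68 (adjusted p = 0.000958 by limma) and without WT replicate 3 it was −1.34 (adjusted p = 0.0483). It was not called without WT replicate 1 (−1.08, adjusted p = 0.113), WT replicate 2 (−1.11, 0.116), *Rdh10* KO replicate 2 (−0.79, 0.121) or *Rdh10* KO replicate 3 (−1.06, 0.105). The direction was lower in all 6 of these fits. With all libraries, *Cyp26b1* was called by edgeR's quasi-likelihood test on the recovered reads (−0.93, adjusted p = 0.0124), but not by DESeq2 (−0.99, adjusted p = 0.172) or by limma without its intensity trend (adjusted p = 0.238).

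*Cyp26c1*, whose enzyme acts on 9-cis as well as all-trans RA, had normalized counts of 152, 155 and 79.0 in WT and of 396, 146 and 109 in *Rdh10* KO libraries. The value of *Rdh10* KO replicate 1 was above every other library, and replicates 2 and 3 lay inside the WT range. The means were 129 ± 43.1 and 217 ± 156 (SD, n = 3), and the log2 fold change was 0.59 ± 0.37 (SE; 95% interval −0.21 to 1.39; adjusted p = 0.320 by limma; exact permutation p = 0.6). The interval of the fold, from 0.862 to 2.62 times the WT level, includes both no change and a doubling of the level. Without *Rdh10* KO replicate 1 the log2 fold change was 0.04 (adjusted p = 0.947), so the higher mean came from that library.

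**Figure D1:**
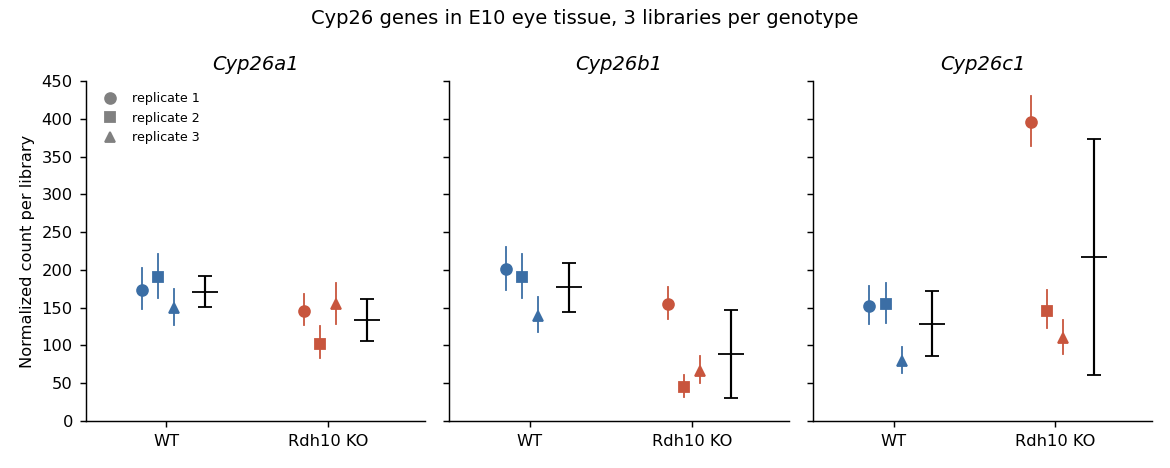
Normalized count (vertical axis) of each *Cyp26* gene in the 3 WT (blue) and 3 *Rdh10* KO (red) libraries; symbols stand for replicates, thin bars are exact Poisson 95% intervals, and black marks are mean ± SD. *Cyp26b1* was at 44.8 and 65.9 in *Rdh10* KO replicates 2 and 3 and at 155 in replicate 1, and *Cyp26c1* reached 396 in *Rdh10* KO replicate 1.

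For none of the 3 genes were the groups apart, while over all tested genes the groups did not overlap for 34.6% (17.0% lower and 17.6% higher in *Rdh10* KO). The 1 member called, *Cyp26b1*, stands beside 3.29% of all genes called in either direction.

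The spread between *Rdh10* KO libraries was wide for 2 of the 3 genes. On the log2 scale the SD between *Rdh10* KO libraries was 0.32 for *Cyp26a1*, 0.92 for *Cyp26b1* and 0.97 for *Cyp26c1*, and between WT libraries it was 0.18, 0.28 and 0.55. Among genes of like level (1380, 1291 and 1468 genes), the *Rdh10* KO spread of *Cyp26a1* was at percentile 82.8, that of *Cyp26b1* at 99.3 and that of *Cyp26c1* at 99.7. *Cyp26c1* also varied widely between WT libraries, at percentile 99.1, where WT replicate 3 was lowest.

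In *Rdh10* KO replicate 1, where *Cyp26b1* and *Cyp26c1* were highest among the *Rdh10* KO libraries, the summed markers of other cell types were as follows. The 12 optic vesicle markers summed to 8245, 8121 and 8370 normalized counts in WT and to 7142, 9444 and 9216 in *Rdh10* KO libraries, and the 8 forebrain markers to 3749, 3535 and 3228 and to 2508, 4153 and 4087. *Rdh10* KO replicate 1 was thus the lowest library for both lists. The 7 hindbrain markers summed to 714 to 940 in WT and to 1232, 1169 and 728 in *Rdh10* KO libraries, with *Egr2* at 0 in all WT libraries and *Hoxb1* at 0 in all *Rdh10* KO libraries. Most of that sum was *En2*, at 709, 682 and 542 in WT and at 942, 907 and 474 in *Rdh10* KO libraries. Other members were highest in *Rdh10* KO replicate 1, *Hoxa2* at 22.9 against 8.53 and 2.35 in replicates 2 and 3, and *Gbx2* at 77.3 against 40.5 and 41.2.

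The 7 primitive blood markers summed to 99476 to 133690 in WT and to 50438, 118530 and 154640 in *Rdh10* KO libraries, with replicate 1 lowest. The 10 cranial mesenchyme markers summed to 14338 to 14412 in WT and to 11845 to 12168 in *Rdh10* KO libraries, and the 7 endothelial markers to 3184 to 3644 and to 5118 to 5131. The 7 surface ectoderm markers summed to 7185 to 7695 in WT and to 6998 to 8071 in *Rdh10* KO libraries. Of lists for tissue from outside the dissected region, 6 heart markers summed to 68.6 to 102 and to 148 to 294, 6 detected placenta and decidua markers to 25.6 to 37.9 and to 61.6, 25.6 and 38.8, and 8 trunk and limb markers to 13.2 to 35.6 and to 8.24 to 22.4. *Rdh10* KO replicate 1 was thus the highest library for the placenta and decidua sum. Within that list, *Prl8a2* was at 0 in all WT libraries and at 32.2, 13.9 and 18.8 in *Rdh10* KO libraries, *Prl3d1* was at 0 and then at 7.16, 2.13 and 5.88, and *Prl3b1* was at 36.8, 22.3 and 36.7 and then at 21.5, 9.60 and 12.9. Mesenchyme, endothelium and heart sums were apart between the genotypes, but within *Rdh10* KO the mesenchyme and endothelium sums did not single out replicate 1. The part of tissue makeup in the *Cyp26* differences was not tested.

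Levels can be compared between the genes only per length, and were computed from the recovered reads as RPKM, reads per kb of annotated exon scaled to each library's total reads on genes. In WT replicates 1 to 3, *Cyp26a1* was at 4.49, 4.89 and 3.85, *Cyp26c1* at 4.47, 4.51 and 2.31, and *Cyp26b1* at 1.92, 1.81 and 1.33. The means of *Cyp26a1* and *Cyp26c1* were 4.41 ± 0.524 and 3.76 ± 1.26 (SD, n = 3). Within each WT library *Cyp26c1* was below *Cyp26a1*, at 0.995, 0.923 and 0.600 times its level, hardly so in replicate 1. This difference was not tested. *Cyp26b1* was lowest in every WT library (1.69 ± 0.314). These WT levels were at percentiles 55.1, 52.1 and 41.1 of 17281 protein-coding genes.

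In *Rdh10* KO replicates 1 to 3 the level per length of *Cyp26a1* was 3.80, 2.62 and 4.03, that of *Cyp26c1* 11.7, 4.24 and 3.25, and that of *Cyp26b1* 1.5, 0.424 and 0.638. *Cyp26b1* was again lowest in every library. The order of the other two was not fixed, since *Cyp26c1* was above *Cyp26a1* in *Rdh10* KO replicates 1 and 2 and below it in replicate 3. With the longest transcript as length in place of all exons, *Cyp26b1* remained lowest in all 6 libraries, from 0.505 to 2.28.

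The sum of the 3 genes per length gives the family's level as a whole. It was 10.9, 11.2 and 7.49 in WT and 17.0, 7.28 and 7.92 in *Rdh10* KO libraries, and the groups overlapped. *Rdh10* KO replicate 1 was the highest library because of *Cyp26c1*, and the other two lay near WT replicate 3. The share of this sum held by *Cyp26b1* was 17.6%, 16.2% and 17.7% in WT and 8.82%, 5.83% and 8.06% in *Rdh10* KO libraries. That of *Cyp26c1* was 41.1%, 40.2% and 30.8% in WT and 68.8%, 58.2% and 41.0% in *Rdh10* KO libraries, and that of *Cyp26a1* was 41.3%, 43.6% and 51.4% and then 22.4%, 35.9% and 50.9%. The shares of *Cyp26b1* did not overlap between the genotypes and those of *Cyp26a1* did. Those of *Cyp26c1* overlapped narrowly, with *Rdh10* KO replicate 3 (41.0%) just below WT replicate 1 (41.1%). As shares of the summed normalized counts, which are not divided by length, those of *Cyp26c1* were 28.9%, 28.9% and 21.5% in WT. They were 56.8%, 49.8% and 33.2% in *Rdh10* KO libraries and did not overlap with WT, so the separation depended on the measure.

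**Figure D2:**
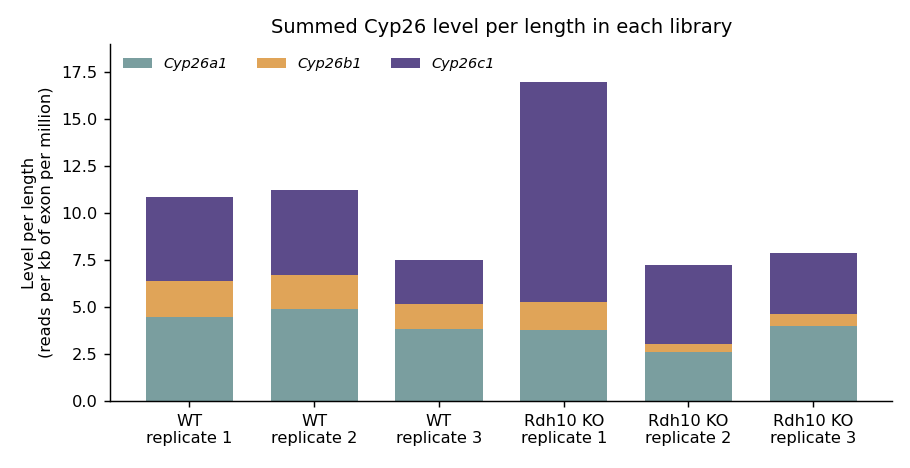
Level per length (vertical axis, RPKM from the recovered reads) of *Cyp26a1*, *Cyp26b1* and *Cyp26c1*, stacked in each of the 6 libraries. The sum was 17.0 in *Rdh10* KO replicate 1, where *Cyp26c1* held 68.8% of it, and 7.28 to 11.2 in the other libraries.

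Ratios within a library do not depend on its scaling factor, and 3 pairs were compared. The ratio of *Cyp26c1* to *Cyp26b1* in normalized counts was 0.760, 0.813 and 0.568 in WT and 2.55, 3.26 and 1.66 in *Rdh10* KO libraries. *Cyp26c1* was below *Cyp26b1* in every WT library and above it in every *Rdh10* KO library. This includes *Rdh10* KO replicate 1, where both genes were highest among the *Rdh10* KO libraries, although *Cyp26b1* lay within the WT range. The difference was 1.76 ± 0.33 on the log2 scale (SE, n = 3), a 3.4-fold change, and ranged from 1.54 to 2.03 when 1 library was left out. The exact permutation test gave p = 0.1, the smallest it can give, and 0.3 after adjustment over the 3 pairs.

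The ratio of *Cyp26b1* to *Cyp26a1* was 1.15, 1.0 and 0.931 in WT and 1.06, 0.437 and 0.428 in *Rdh10* KO libraries. The groups overlapped through *Rdh10* KO replicate 1 (log2 difference −0.81 ± 0.44 (SE), exact permutation p = 0.3, adjusted 0.3). The ratio of the chromosome 19 neighbours *Cyp26c1* to *Cyp26a1* was 0.876, 0.813 and 0.528 in WT and 2.71, 1.43 and 0.710 in *Rdh10* KO libraries. These groups overlapped through *Rdh10* KO replicate 3 (log2 difference 0.96 ± 0.60 (SE), exact permutation p = 0.3, adjusted 0.3).

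**Figure D3:**
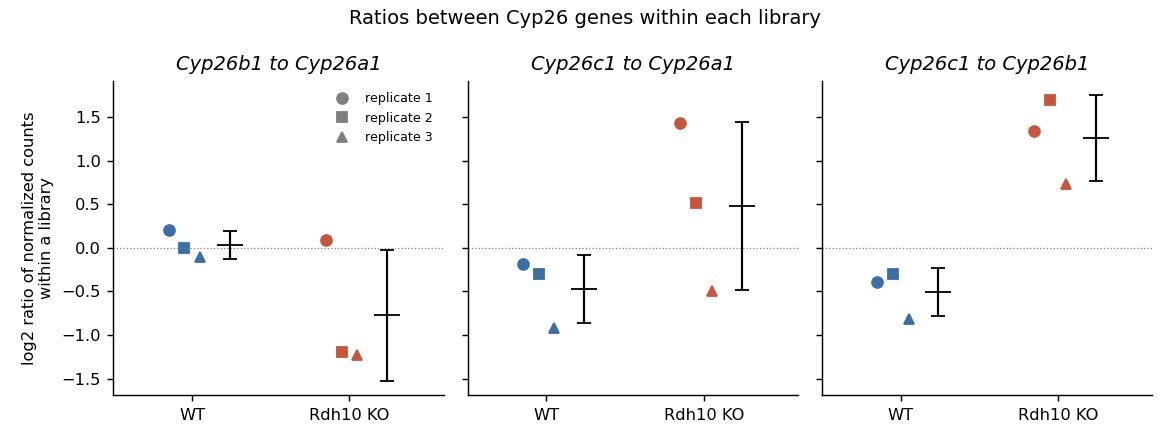
Log2 ratio of normalized counts between 2 *Cyp26* genes within each library (vertical axis) for WT (blue) and *Rdh10* KO (red); symbols stand for replicates and black marks are mean ± SD. Only for *Cyp26c1* to *Cyp26b1* were all *Rdh10* KO libraries above all WT libraries.

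Genes next to the members were read for the same libraries. Next to *Cyp26c1*, *Exoc6* of the exocyst complex had normalized counts of 285, 302 and 304 in WT and of 313, 387 and 356 in *Rdh10* KO libraries. Its groups did not overlap, but it did not pass the test (log2 fold change 0.24, adjusted p = 0.169 by limma), and its value in *Rdh10* KO replicate 1 was the lowest of that group. *Exoc6b*, the nearest gene to *Cyp26b1* and a paralog of *Exoc6*, was not called (0.12, adjusted p = 0.379). Among genes farther from *Cyp26b1*, *Spr*, which makes tetrahydrobiopterin, and *Emx1*, a forebrain transcription factor, had log2 fold changes of −0.64 (adjusted p = 0.000973) and −0.67 (adjusted p = 0.0242), lower but within the cut-off. *Hhex* (0.42), *Kif11* (0.00), *Myof* (−0.26) and *Cep55* (−0.06) on chromosome 19 and *Dysf* (0.28), *Zfp638* (−0.15) and *Paip2b* (0.17) on chromosome 6 had adjusted p-values above 0.05.

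The other genes of RA metabolism and signaling were read from a list of 35, of which 33 were tested. Of these, 4 were called lower and 0 higher, where all genes gave 0.886% and 2.41%. At an adjusted p under 0.05 without the cut-off 8 were lower and 7 higher, where all genes gave 9.12% and 10.3%. The 25 with a mean above 10 had a median log2 fold change of 0.02. Called lower among genes of retinoid synthesis and interconversion were *Rdh10*, *Aldh1a1* and *Dhrs3*. *Aldh1a1*, which oxidizes retinaldehyde to RA in the dorsal retina, had normalized counts of 378, 425 and 409 in WT and of 150, 170 and 129 in *Rdh10* KO libraries (log2 fold change −1.44, adjusted p = 1.11e-05 by limma). *Rdh10* KO replicate 1 lay between the other two for *Aldh1a1*.

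*Dhrs3*, which reduces retinaldehyde back to retinol and so opposes RA synthesis at an earlier step than CYP26, had normalized counts of 108, 112 and 97.8 in WT and of 56.6, 30.9 and 77.7 in *Rdh10* KO libraries. All *Rdh10* KO libraries were below WT, replicate 2 lowest as for *Cyp26a1* and *Cyp26b1* (log2 fold change −1.04 ± 0.28 (SE), adjusted p = 0.0186 by limma), and the call was lost without *Rdh10* KO replicate 2 (−0.68) or any 1 of the WT libraries, and by limma without its intensity trend (adjusted p = 0.167). The other aldehyde dehydrogenases of RA synthesis were not called, with log2 fold changes of −0.09 for *Aldh1a3* (adjusted p = 0.522) and 0.58 for *Aldh1a2* (adjusted p = 0.267).

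Of 8 genes for retinoid binding and uptake, 0 were called. *Crabp1* (−0.42) and *Crabp2* (−0.63), whose proteins carry RA inside the cell, as well as *Fabp5* (−0.59) and the retinol transporter *Stra6* (−0.60), were lower at an adjusted p under 0.05 (limma) but inside the cut-off. *Rbp4*, the carrier of retinol in plasma, was higher by 0.78 and likewise inside it (adjusted p = 0.0400). Of 6 receptors, *Rarb* was called lower and no other was called. Of 7 coregulators 0 were called, and 6 were higher at an adjusted p under 0.05 without the cut-off, among them *Ep300* (0.66) and *Ncor1* (0.42). *Cyp26b1* had a wider interval than any of the 4 genes called lower, as the plot of fold changes over the pathway shows.

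**Figure D4:**
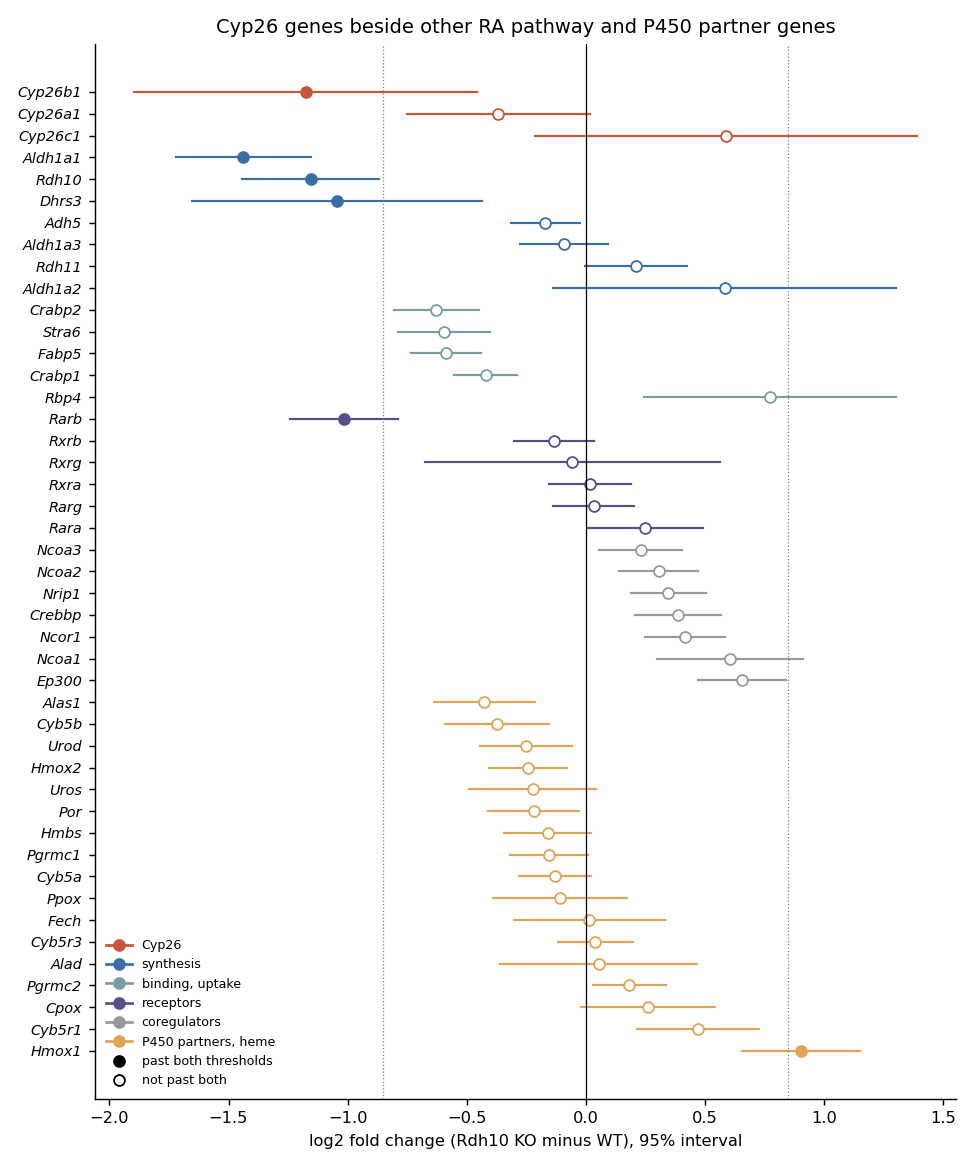
Log2 fold change (*Rdh10* KO minus WT, horizontal axis) with its 95% interval for the *Cyp26* genes, RA pathway genes with a mean above 10 and P450 partner genes; filled points passed both thresholds and dotted lines mark the cut-off of 0.85. *Cyp26b1* (−1.18) lay near *Rdh10* (−1.16) and *Rarb* (−1.01) with a wider interval, and *Cyp26c1* (0.59) lay on the other side of 0.

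CYP26 enzymes need heme and electrons from P450 reductase, so the 17 genes for P450 partners and heme turnover were read beside them. None was called lower and 1 was called higher, where 0.886% of all tested genes were called lower and 2.41% higher. Their median log2 fold change was −0.13. *Por*, the reductase that feeds microsomal P450 enzymes, was not called (−0.22, adjusted p = 0.108 by limma). *Hmox1*, which degrades heme and responds to stress, had normalized counts of 328, 327 and 342 in WT and of 522, 710 and 651 in *Rdh10* KO libraries, with no overlap (log2 fold change 0.90 ± 0.12 (SE), adjusted p = 0.000153), and fell inside the cut-off without *Rdh10* KO replicate 2 (0.81). Inside the cut-off at an adjusted p under 0.05, *Alas1*, the first enzyme of heme synthesis (−0.43), *Cyb5b* (−0.37) and *Hmox2* (−0.24) were lower and *Cyb5r1* (0.47) was higher.

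Other cytochrome P450 genes were taken by symbols made of Cyp, a number, letters and a number, and P450 genes with other symbols were not read. Of the 37 listed, 27 were tested, 0 were called lower and 1 higher, beside 0.886% and 2.41% of all tested genes. The 15 with a mean above 10 had a median log2 fold change of 0.14. The gene called was *Cyp4f13*, with normalized counts of 6.14, 3.34 and 6.58 in WT and of 13.6, 30.9 and 21.2 in *Rdh10* KO libraries (log2 fold change 1.99 ± 0.54 (SE), adjusted p = 0.0178 by limma). Its groups did not overlap, its counts were low, and the call was lost without WT replicate 2, *Rdh10* KO replicate 2 or *Rdh10* KO replicate 3, and by limma without its intensity trend (adjusted p = 0.0748). Among the 37 listed, the highest WT levels per length were those of *Cyp20a1* at 10.5, *Cyp39a1* at 6.10 and *Cyp27a1* at 2.30. *Cyp26a1* and *Cyp26c1* lay between *Cyp39a1* and *Cyp27a1*. Their log2 fold changes were 0.36 (adjusted p = 0.0130), 0.21 (0.223) and 0.03, all inside the cut-off.

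A list of 6 transcription factors and signals was read as possible regulators of *Cyp26* expression. Of these, 2 were called lower and 0 higher, where 0.886% of all tested genes were called lower and 2.41% higher. Whether any of them acts on *Cyp26* in this tissue was not tested. *Vax2*, a ventral optic vesicle factor known to affect *Cyp26a1* and *Cyp26c1* in the retina, had normalized counts of 28.7, 17.8 and 30.1 in WT and of 5.01, 7.47 and 5.88 in *Rdh10* KO libraries (log2 fold change −2.02, adjusted p = 0.00778 by limma). *Tbx2*, a T-box factor of the dorsal optic vesicle and face, had normalized counts of 1143, 1067 and 950 in WT and of 425, 396 and 577 in *Rdh10* KO libraries (−1.19, adjusted p = 4.20e-05). Neither gene's groups overlapped, and *Rdh10* KO replicate 1 lay within the range of the other *Rdh10* KO libraries for *Tbx2* and was lowest for *Vax2*. *Vax1* (−0.60, adjusted p = 0.0784), *Tbx1* (0.33), *Tbx5* (0.19) and *Fgf8* (0.13) were not called.

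The genes most like each member over the 6 libraries were taken by Pearson's r of log2 values among 13680 protein-coding genes, as a description. For *Cyp26a1* they were *Taf1c* (0.999), *Clip2* (0.993), *Tecrl* (0.991), *Zfp668* (0.989) and *Dtx2* (0.989). For *Cyp26b1* they were *Gorasp2* (0.993), *Tysnd1* (0.993), *Csrp2bp* (0.990), *Pptc7* (0.990) and *Klhdc3* (0.988), and for *Cyp26c1* they were *Atoh8* (0.978), *Lurap1* (0.973), *Gemin5* (0.972), *Trabd2b* (0.971) and *Fbxo2* (0.964). No gene stood in more than 1 of these lists and no member stood in the list of another. The 6 points of each r share their genotype groups and library depths, and nothing on shared function or control is read from them.

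The folds of the 3 genes were computed under other processing choices as well. *Cyp26a1* ranged from −0.48 to −0.18 on the log2 scale and was called under none of them, *Cyp26b1* from −1.68 to −0.79, and *Cyp26c1* from 0.04 to 0.97 and was called under none.

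**Figure D5:**
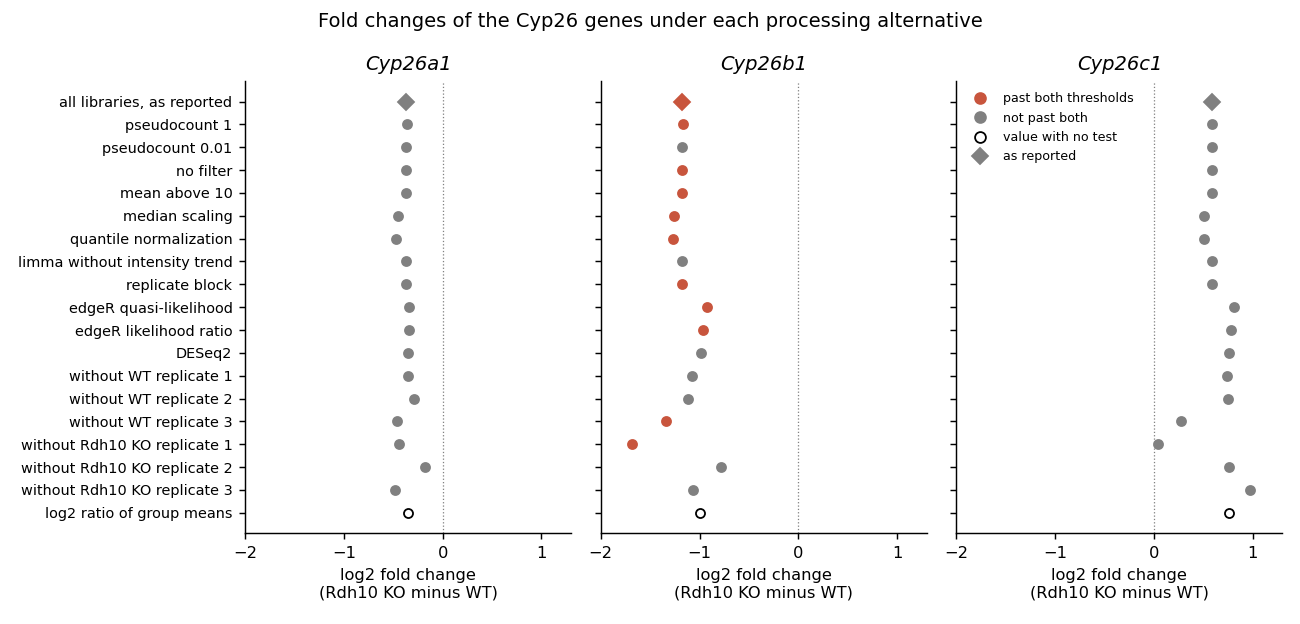
Log2 fold change (*Rdh10* KO minus WT, horizontal axis) of each *Cyp26* gene under each processing alternative (vertical axis); red points passed both thresholds, grey points did not, and the open circle is a value with no test. No value changed sign, and *Cyp26b1* was called in some alternatives and not in others.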

How the data were processed

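Poly(A)-selected, directional RNA-seq libraries of E10 eye tissue were analysed, 3 WT and 3 *Rdh10* KO, each from a pool of 3 embryos. The authors aligned reads to mm10 with TopHat (its version is not given in the sources used here) and estimated abundance by expectation–maximization. Although FPKM is named as the normalization and was assumed in the plan, the deposited signal values proved to be whole reads divided by 1 median-of-ratios factor per library and not by length: 100% came out whole within the rounding of the table. They are called normalized counts. The table has 26437 genes and 1 line naming no gene, 40 genes share a name, and 26288 (99.4%) matched GENCODE mouse release 21. Reads on genes (16392777 to 27101025 per library) set the precision. At 42 to 553 reads per library for the 3 genes, exact Poisson intervals cover counting error only.

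The test was limma 3.58.1 (R 4.3.3, intensity trend) on log2(value + 0.1) for genes with a mean above 0.5. P-values were adjusted by Benjamini–Hochberg over all 22921, and genes were called at an adjusted p under 0.05 and a log2 fold change beyond 0.85. Fold changes on this scale slightly understate those of low genes. Exact permutation tests were two-sided. Libraries are separate pools by the study's methods. Alternatives were edgeR 4.0.16 and DESeq2 1.42.0 on the recovered reads, pseudocounts of 1 and 0.01, no filter and a mean above 10, median scaling, quantile normalization, no trend, no cut-off, a replicate block, the ratio of group means and leaving out each library. Other settings for the ratios between members, and lengths from the longest transcript, were chosen after seeing the data. The fits were tested on simulated data.

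Lists covered the RA pathway, P450 partners, other P450 genes (by form of symbol), possible regulators of *Cyp26* and markers of 10 tissues. Some genes were left out of these lists, and their values are not given here. The members and lists were chosen with earlier results of these data known. Named genes were the members, *Rdh10*, *Rarb*, called genes of the lists that are not tissue markers, genes of the synthesis, receptor, partner and regulator lists, the 3 nearest protein-coding genes on each side, the 5 most alike genes by r and the 3 highest P450 genes per length. Single tissue markers, single genes with a DR5, and the binding and coregulator genes inside the cut-off were named after their values were seen. Tables, exact tests and plots were made in Python 3.11.15 (numpy 2.4.6 and pandas 2.3.3 for tables, scipy 1.17.1 for exact tests, matplotlib 3.10.9 for plots).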

Additional observations from a re-analysis of the deposited data

How the results depend on the processing

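*Cyp26b1* kept its lower direction under every alternative. It was not called with a pseudocount of 0.01 (−1.18, adjusted p = 0.0511 by limma), without the intensity trend (−1.18, adjusted p = 0.238) or by DESeq2 (−0.99, adjusted p = 0.172), and was called in the 9 other tested alternatives, from −1.27 to −0.93, edgeR's quasi-likelihood (−0.93, adjusted p = 0.0124) and likelihood ratio tests (−0.96, 0.00827) included. The log2 ratio of its group means had no test. With 1 library left out it ranged from −1.68 to −0.79 and was called in 2 of 6 fits. *Cyp26a1* ranged from −0.47 to −0.34 over alternatives and from −0.48 to −0.18 with a library left out. *Cyp26c1* ranged from 0.50 to 0.81 and from 0.04 to 0.97, with its lowest adjusted p by edgeR's quasi-likelihood test (0.0558). The ratios between members, whose other settings were chosen after seeing the data, kept their direction, from −1.24 to −0.58 for *Cyp26b1* to *Cyp26a1* and from 0.48 to 1.44 for *Cyp26c1* to *Cyp26a1* with a library left out.

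The labels do not say whether same-numbered libraries share a litter or a day of collection. Deviations of same-numbered libraries correlated at −0.026, −0.035 and −0.074, and 0 of 3 *Rdh10* KO libraries correlated best with their own number. With 3 libraries a group, these correlations show no pairing but cannot exclude it. With a replicate block, adjusted p-values were 0.270 for *Cyp26a1*, 0.0281 for *Cyp26b1* and 0.161 for *Cyp26c1*, so that no call among them changed, and 0 other P450 genes were called higher.

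Of RA pathway genes, 8 were lower and 7 higher without the cut-off, 3 lower without the trend (*Dhrs3* lost), and 3 to 4 lower and 0 to 1 higher with a library left out. *Hmox1* was lost under median scaling (0.82) and without *Rdh10* KO replicate 2 (0.81). The count of other P450 genes called higher was 2 with a pseudocount of 0.01, 2 without the filter, 3 by edgeR's likelihood ratio test, 2 without the cut-off and 0 to 1 with a library left out. Over all genes, 203 were called lower and 552 higher, against 118 and 294 without the trend, 343 lower by edgeR's likelihood ratio test, 2091 and 2360 without the cut-off, and 104 to 236 and 373 to 547 with a library left out. The cause of these changes was not tested. Median scaling moved the median of all genes to −0.08. The intervals of *Cyp26a1* and *Cyp26c1*, from 3 libraries a group, include 0 and do not show that their levels were alike.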
